A study of Mus musculus with 27 samples.

Results

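The complement genes described here are C1qa, C1qb and C1qc, C3, C4b, Cfb, Cfp and C3ar1, 8 of the 41388 genes in the count table of sorted mouse dural macrophages. They were taken by gene identifier, to set C1q against C3 and the alternative pathway across 7 groups of mice that differ in the T cells they received. All 8 passed the filter on low counts that left 12661 genes for testing.

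Complement is a cascade of plasma and tissue proteins that marks targets for uptake and recruits immune cells. In the classical pathway, C1q, built from the A, B and C chains, binds immune complexes or dying cells and its partner proteases then cut C4 and C2, whereas in the alternative pathway C3 that is already deposited recruits factor B, and properdin (Cfp) holds the resulting enzyme together. Both routes meet at C3, whose small fragment is read by the receptor encoded by C3ar1. Tissue macrophages are a main source of C1q, which tissue-resident cells of the brain borders make in large amounts, while most circulating C3 comes from the liver.

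Tbet ko, IFNg ko and IL-17AF ko donor T cells gave 2 female libraries each, IL6Ra ko/IL21R ko T cells gave 7 (3 female, 4 male), IL22 ko T cells 3 (2 female, 1 male) and total B6 T cells 5 (4 female, 1 male), and 6 libraries came from mice at steady state that received no T cells (4 female, 2 male). All recipients were B6 mice with a Rag1 knockout, aged 16 to 19 weeks, and lacked T and B cells of their own, so the mice without T cells differ from wild-type mice. Transferred cells had been in the recipients for 6.5 weeks. Tbet (T-bet) is the master transcription factor of Th1 cells, IFNg their signature cytokine, IL6Ra and IL21R receptors for cytokines that drive Th17 cells, and IL-17A, IL-17F and IL22 cytokines of that lineage. The knockouts are in the donor cells, so the macrophage libraries hold no check of them, and which T-cell subsets were transferred and how the sort was gated are details not given here by the labels. Levels are CPM, read counts scaled to a common library total, and each library is named by sex and a running number (F1, M1).

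Library totals ran from 6902602 to 19966749 counts. The 7 macrophage markers summed to between 10014 and 18903 CPM in every library, against 38.5 to 227 CPM for 8 T-cell markers. Of these 8 only Cd4 was above 0 in every library. The T-cell sum was 79.7 to 180 CPM in no T-cell and 38.5 to 138 CPM in total T-cell libraries. The macrophage sum was not even across groups. It was 15940 to 18903 CPM in total T-cell and 11719 to 14245 CPM in no T-cell libraries (3 of 7 tested higher, 0 lower). The libraries fell into 3 sets by the summed CPM of 88 ribosomal protein genes: set A (7 libraries, 29858 to 36603), set B (13, 12566 to 17632) and set C (7, 8160 to 9604). Set A holds libraries of total T cells and no T cells only. Set B holds libraries of IL6Ra/IL21R ko, IL22 ko, total and no T cells. Set C holds all Tbet ko, IFNg ko and IL-17AF ko libraries and 1 IL6Ra/IL21R ko library, M4. Because the first 3 of these groups share no set with a control, their T-cell genotype and their library set cannot be told apart. The 2 Tbet ko columns carry nearly the same name and could come from 1 animal.

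All 8 genes lie on the minus strand of GRCm38. C1qa, C1qc and C1qb are neighbours on chromosome 4 (136895917 to 136898803, 136889804 to 136893065 and 136880129 to 136886187). C3 (57203970 to 57228136), C4b (34728380 to 34743882) and Cfb (34856374 to 34862518) are on chromosome 17, C3ar1 on chromosome 6 (122847138 to 122856161) and Cfp on chromosome X (20925454 to 20931555). The 250 bases before the RefSeq start of C3 and of C1qb, from RefSeq GRCm38.p6, are shown because C3 was called and C1qb was not in total T cells against no T cells. They are written 5′ to 3′ on the minus strand, with motif matches in capitals.
C3 chr17:57228137-57228386: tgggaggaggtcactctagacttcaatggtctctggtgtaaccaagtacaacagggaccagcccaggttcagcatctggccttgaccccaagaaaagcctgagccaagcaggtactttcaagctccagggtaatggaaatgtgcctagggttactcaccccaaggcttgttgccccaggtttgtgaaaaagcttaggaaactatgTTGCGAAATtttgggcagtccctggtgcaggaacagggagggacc
C1qb chr4:136886201-136886450: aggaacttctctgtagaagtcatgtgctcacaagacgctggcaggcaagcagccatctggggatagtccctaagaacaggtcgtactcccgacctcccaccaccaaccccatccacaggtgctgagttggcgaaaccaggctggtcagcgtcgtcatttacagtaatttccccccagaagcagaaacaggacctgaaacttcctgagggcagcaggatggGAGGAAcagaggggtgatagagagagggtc

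The capitals in the C3 window mark TTGCGAAAT, 45 to 37 bases before the start, a match to the C/EBP letters TTNNGNAAT, which 10.16% of 32536 promoter windows of this length hold. Those in the C1qb window mark GAGGAA, 30 to 25 bases before the start, the core that PU.1 binds, held by 23.36% of windows. Both strands were searched for these and for TATAAA (12.31% of windows), the STAT site TTCNNNGAA (7.04%), an interferon-stimulated response element (2.98%) and an NF-kB site (3.92%). No match overlapped a match to another motif in the windows of the 5 members that were searched. The C3ar1 window held 1 TATAAA, that of C1qc 1 PU.1 core and 1 NF-kB match, and that of Cfp none of the 6. A match is letters in a window and not a shown binding site. C1qa, C4b and Cfb had no entry in the promoter sequences used, so they were not searched for motifs.

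The C1q genes were the most abundant members in every group, and their group means spread over a narrower range than those of C3. Averaged over the 27 libraries and scaled to exon length, C1qa had a level of 5208 CPM per kilobase, C1qb 3632 and C1qc 2040, against 294 for Cfp, 220 for C3ar1, 163 for C4b and 82.5 for C3. C1qa averaged 4887 ± 179 CPM in Tbet ko (n = 2), 4378 ± 356 in IFNg ko (n = 2), 5208 ± 168 in IL-17AF ko (n = 2), 6028 ± 507 in IL6Ra/IL21R ko (n = 7), 6676 ± 338 in IL22 ko (n = 3), 4735 ± 1331 in total T-cell (n = 5) and 5232 ± 294 CPM in no T-cell libraries (SD, n = 6). Ordered by mean (IL22 ko, IL6Ra/IL21R ko, no T cells, IL-17AF ko, Tbet ko, total T cells, IFNg ko), the ranges of neighbouring groups overlapped except between IL-17AF ko and Tbet ko. C1qb averaged between 3285 ± 276 CPM in IFNg ko and 4689 ± 303 in IL22 ko libraries, and C1qc between 3216 ± 1030 CPM in total T-cell and 4626 ± 227 in IL22 ko libraries.

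None of the C1q chains was called in total T cells against no T cells. C1qa had 2960, 6098, 5274, 5614 and 3728 CPM in total T-cell libraries F1 to F4 and M1, against 4935 to 5598 CPM (median 5198) in libraries without T cells. The log2 fold changes were -0.15 ± 0.13 for C1qa, -0.09 ± 0.14 for C1qb and -0.30 ± 0.15 for C1qc (SE; adjusted p = 0.462, 0.678 and 0.163 in edgeR's quasi-likelihood test). The total T-cell values split, with F1 and M1 below every library without T cells and the other 3 libraries inside or above that range. Across the 27 libraries the chains moved together (Pearson r of log2 CPM 0.94, 0.95 and 0.93 for the 3 pairs, points that share library depth and composition). Their proportions were less even: the ratio of C1qa to C1qc averaged 1.502 ± 0.17 in total T-cell and 1.33 ± 0.063 in no T-cell libraries, and was highest, at 1.76, in total T-cell library F1.

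C3, the component on which all pathways converge, was higher with total T cells than without T cells. It had 1561, 1093, 276, 639.5 and 2925 CPM in total T-cell libraries F1 to F4 and M1, against 41.3 to 243 CPM (median 85.6) in libraries without T cells. All 5 total T-cell values lay above all 6 values without T cells. The means were 1299 ± 1029 and 117 ± 78.9 CPM, and the log2 fold change was 3.42 ± 0.52 (adjusted p = 8.67e-05). Cfb, the protease subunit of the alternative pathway's C3-cutting enzyme, moved with it: 68.6, 25.0, 6.94, 17.7 and 72.9 CPM in total T-cell libraries F1 to F4 and M1, against 1.09 to 6.29 CPM (median 3.21) without T cells, a log2 fold change of 3.56 ± 0.49 (adjusted p = 4.60e-05). C3 and Cfb were 2 of the 8 members called, both higher, in a comparison that called 21.1% of all genes (11.5% higher); the members' median log2 fold change was -0.08, against -0.03 over all genes.

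Both library sets that hold total T-cell and no T-cell libraries showed this direction. In set A, C3 had 1093 to 2925 CPM with total T cells and 65.4 to 243 without, and in set B 276 and 639.5 CPM with total T cells and 41.3 and 70.9 without. Set A alone gave a log2 fold change of 3.62 ± 0.46 for C3 and 3.97 ± 0.54 for Cfb (adjusted p = 0.00201 and 0.00228), and set B alone, with 2 libraries a group, gave 3.03 ± 0.72 and 2.31 ± 0.68 (adjusted p = 0.064 and 0.113). The change of the effect from set A to set B was -0.61 ± 0.72 for C3 and -1.64 ± 0.89 for Cfb (adjusted p = 0.806 and 0.547). Leaving out any 1 library kept both calls, with log2 fold changes of 3.18 to 4.001 for C3 and 3.11 to 4.02 for Cfb.

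Markers of other cell states moved with these genes. All 8 markers of monocyte-derived cells were higher with total T cells (summed 1868 to 8722 CPM in total T-cell and 721 to 1307 CPM in no T-cell libraries), and all 10 markers of border macrophages were lower (2119 to 7697 against 9352 to 13774 CPM). None of the 8 or the 10 was at 0 in all libraries. Their part in the C3 and Cfb result was not tested, and in RNA of sorted bulk cells fewer cells of a type and less RNA per cell cannot be told apart. Fibroblasts and hepatocytes also make C3. The 10 fibroblast markers summed to 666 to 1282 CPM in total T-cell and 1753 to 3118 CPM in no T-cell libraries (4 of 9 tested lower, 0 higher), and the 5 hepatocyte markers to at most 0.472 and 1.94 CPM, with Serpina1a and Fga at 0 in all libraries. The neutrophil markers summed to 223 to 482 CPM with total T cells and 274 to 1181 CPM without (2 of 5 tested higher, 1 lower). The 6 microglia markers summed to 260.3 to 1205 CPM with total T cells and 1696 to 2450.3 CPM without (5 of 6 lower), and the dendritic cell markers to 116 to 259 and 87.9 to 146 CPM (4 of 8 higher).

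Cfp, which encodes properdin, the stabiliser of the alternative pathway's enzyme, was not called in any of the 16 comparisons. It had 338 to 514 CPM in total T-cell and 369 to 543 CPM in no T-cell libraries, a log2 fold change of -0.07 ± 0.17 (adjusted p = 0.817). Group means lay between 433 ± 81.4 CPM in IL-17AF ko and 616 ± 201 CPM in IL6Ra/IL21R ko libraries, and all neighbouring groups in the order of levels overlapped. Cfd, the protease that activates factor B, stayed below the filter on low counts. The level of Cfb itself is uncertain: 2246 of its 2825 exon bases (79.5%) are shared with the gene Gm20547 on the same strand, which had 0 counts in all 27 libraries, and the labels do not say how shared reads were assigned.

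**Figure D1:**
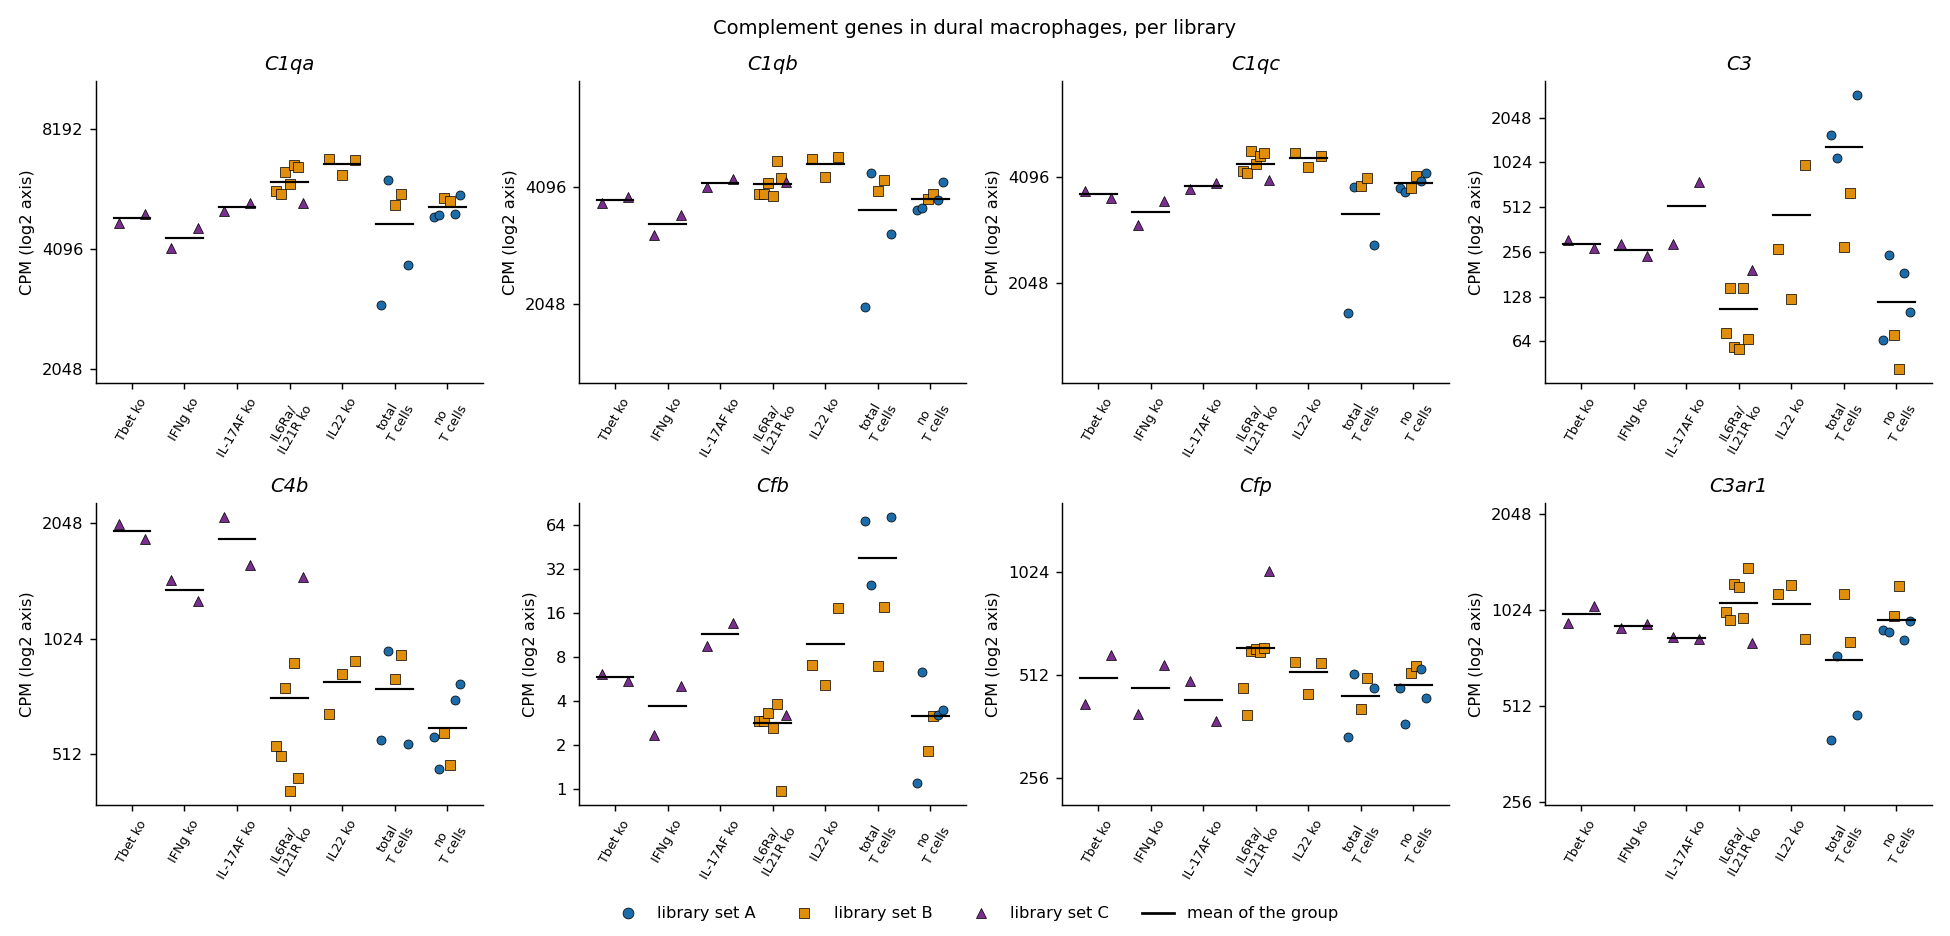
Each point is the CPM (log2 axis) of 1 library, with a panel for each of the 8 genes, groups on the horizontal axis, shape and colour for the library set and a line for the group mean. C3 and Cfb spread over 70.8-fold and 75.7-fold ranges and are highest in total T-cell libraries, the C1q chains spread 2.33-fold to 2.88-fold, and C4b is highest in set C.

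Set against C1q within the same library, C3 spread over a wider range than C1q did. C3 CPM as a percentage of the mean CPM of the 3 C1q genes was 70.3%, 22.8%, 6.30%, 13.7% and 92.9% in total T-cell libraries F1 to F4 and M1, against 0.922% to 5.94% (median 1.88%) in libraries without T cells. The lowest total T-cell value, 6.30%, lay just above the highest value without T cells. M1 and F1, with the most C3, were also the total T-cell libraries with the least C1q. The percentage was 7.61% and 6.57% in Tbet ko, 8.47% and 6.18% in IFNg ko, and 6.64% and 16.7% in IL-17AF ko libraries. It ran from 1.14% to 4.28% (median 1.56%) in IL6Ra/IL21R ko libraries and was 4.87%, 2.46% and 17.8% in IL22 ko libraries F1, F2 and M1. The mean log2 ratio was -1.92 ± 1.62 with total T cells (SD, n = 5) and -5.47 ± 1.00 without (SD, n = 6), a difference of 3.55 that came to 4.12 within set A alone and 2.93 within set B alone. The ratio was built from members chosen with results known, so no p is given.

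**Figure D2:**
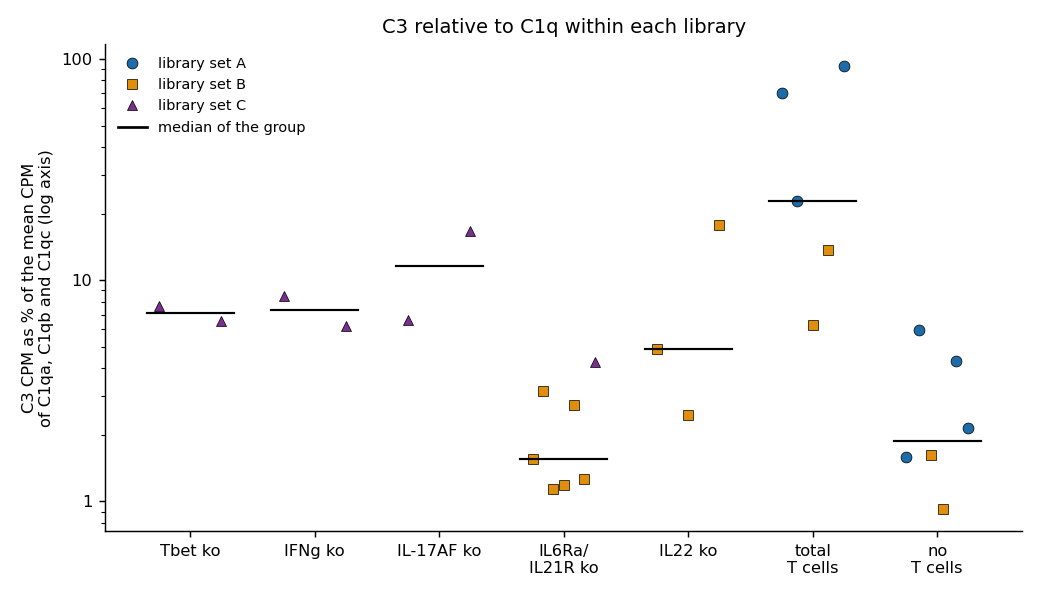
C3 CPM as a percentage of the mean C1q CPM (log axis), 1 point a library, by group, with shape and colour for the library set and a line for the group median. Total T-cell libraries run from 6.30% to 92.9% and no T-cell libraries from 0.922% to 5.94%.

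With IL6Ra/IL21R ko T cells, C3 and Cfb were near their levels without T cells. C3 had 56.4 to 194 CPM (median 72.4) in IL6Ra/IL21R ko libraries, against the 276 to 2925 CPM of total T-cell libraries, with no overlap. Against total T cells the log2 fold change was -3.79 ± 0.50 for C3 and -3.84 ± 0.47 for Cfb (adjusted p = 1.09e-05 and 6.59e-06). Within set B alone it was -2.66 ± 0.53 and -2.29 ± 0.52 (adjusted p = 0.0089 and 0.0172). The highest C3 value of the group came from M4, the library in set C. The monocyte-derived cell markers summed to 365 to 1041 CPM and the border macrophage markers to 10614 to 19656 CPM in IL6Ra/IL21R ko libraries, against 1868 to 8722 and 2119 to 7697 CPM in total T-cell libraries. The fibroblast markers summed to 1960 to 5699 CPM in IL6Ra/IL21R ko and 666 to 1282 CPM in total T-cell libraries, and the microglia markers to 1561 to 3082 and 260.3 to 1205 CPM. None of these 4 sums overlapped between the groups, and their part in this result was not tested.

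In the same comparison C1qa (0.36 ± 0.13), C1qc (0.48 ± 0.15) and C3ar1 (0.70 ± 0.20) were higher (adjusted p = 0.0461, 0.019 and 0.00941), so that 5 of 8 members were called where 28.2% of all genes were (13.3% higher, 14.8% lower). Their ranges overlapped those of total T cells. In set B alone these 3 values were 0.13, 0.17 and 0.22 (adjusted p = 0.516, 0.382 and 0.605). The C1qa call was also lost without any 1 of 7 libraries (IL6Ra/IL21R ko F1, F3, M1, M2 and M3, and total T-cell F1 and M1; adjusted p = 0.0567 to 0.262), and all 3 without total T-cell M1 (C1qc 0.123, C3ar1 0.0739). Against no T cells, 0 of 8 members were called by edgeR's quasi-likelihood test, 0 at an unadjusted p under 0.05 and 0 by DESeq2, with 1.16% of all genes called; C3 was at -0.37 ± 0.45 and Cfb at -0.27 ± 0.46. Both comparisons share the IL6Ra/IL21R ko libraries.

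Over all library sets, mean C3 with IL22 ko T cells lay between the means with total T cells and without T cells. Within set B, which holds all IL22 ko libraries, it was close to the mean with total T cells. The means there were 456 CPM with IL22 ko, 458 CPM with total and 56.1 CPM with no T cells. C3 had 268, 123 and 978 CPM in IL22 ko libraries F1, F2 and M1, and Cfb had 7.09, 5.11 and 17.2 CPM. Library M1 was the highest of the 3 for both genes. The monocyte-derived cell markers summed to 1000.03 to 1643 CPM and the border macrophage markers to 7691 to 10111 CPM in IL22 ko libraries. The hepatocyte marker sum reached 159 CPM in library F2, all of it from Ttr. The part of these markers in the C3 and Cfb values was not tested. Against total T cells C3 was at -1.76 ± 0.63 and Cfb at -2.06 ± 0.60 on the log2 scale (adjusted p = 0.136 and 0.0749), and within set B alone at -0.50 ± 0.65 and -0.51 ± 0.61. Of 8 members 0 were called by edgeR's quasi-likelihood test, where 0.284% of all genes were. An unadjusted p under 0.05 was found for 6 members and 17.3% of all genes, and DESeq2 called 2 members, C1qa and Cfb, and 5.71% of all genes. Without total T-cell library F3 the edgeR test called 4 members (C1qa, C1qc, C3ar1 and Cfb; adjusted p = 0.0478, 0.0473, 0.0177 and 0.0166) and 6.33% of all genes. Without F4 it called 3 (C1qa 0.0468, C1qc 0.0461, Cfb 0.0396) and 4.68% of all genes.

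Against no T cells, IL22 ko libraries had C3 at 1.66 ± 0.56 and Cfb at 1.503 ± 0.54 (adjusted p = 0.262 and 0.297), and C1qa, C1qb and C1qc at 0.35, 0.29 and 0.23. None of the 3 C1q values was called (adjusted p = 0.452, 0.581 and 0.734 in edgeR's quasi-likelihood test). For each of these chains, which moved together across libraries, every IL22 ko library lay above every library without T cells. Such a gap was not particular to this group. For each chain every IFNg ko library lay below every library without T cells, also with no call (C1qa 4127 and 4630 CPM against 4935 to 5598 CPM). The share of all genes without overlap was not counted. All 3 IL22 ko libraries are in set B, and 4 of the 6 libraries without T cells are in set A. In that comparison edgeR called 0 of 8 members and 0.00790% of all genes, 3 members and 9.43% of all genes had an unadjusted p under 0.05, and DESeq2 called 0 members and 1.15% of all genes. Against IL6Ra/IL21R ko T cells, C3 was at 2.02 ± 0.52 and Cfb at 1.78 ± 0.52 (adjusted p = 0.126 and 0.191), again with 0 members and 0.00790% of all genes called by edgeR. There 2 members and 8.59% of all genes had an unadjusted p under 0.05, and DESeq2 called 0 members and 0.656% of all genes. Within set B alone, where both groups lie but for IL6Ra/IL21R ko M4, C3 was higher at 2.16 ± 0.46 (adjusted p = 0.0313).

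**Figure D3:**
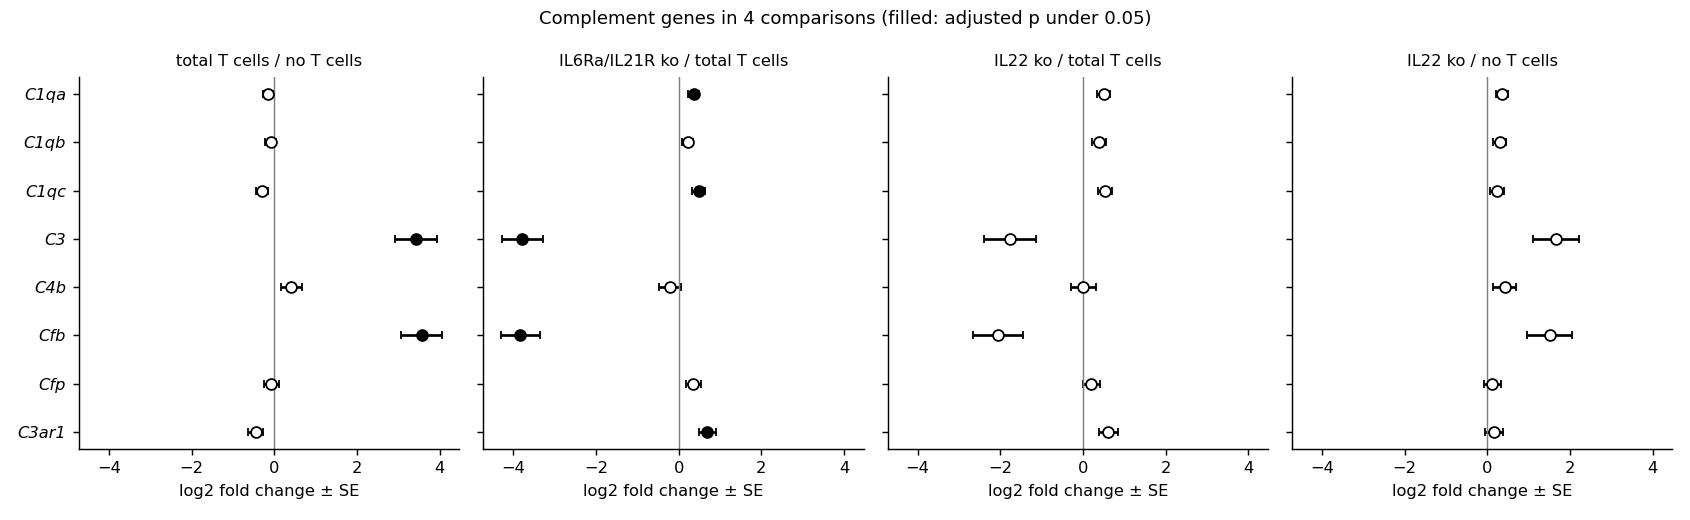
Log2 fold changes (points) with their SE (bars) for the 8 genes in 4 comparisons, filled where the adjusted p was under 0.05. C3 and Cfb stand at 3.42 and 3.56 for total T cells over no T cells and at -3.79 and -3.84 for IL6Ra/IL21R ko over total T cells, and the C1q chains between -0.30 and 0.53.

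In the Tbet ko, IFNg ko and IL-17AF ko groups, all in set C, C3 lay between the total T-cell and no T-cell means. It had 310 and 273 CPM in Tbet ko, 288 and 239 CPM in IFNg ko, and 287 and 753 CPM in IL-17AF ko libraries. In the order of C3 levels over the 7 groups (total T cells, IL-17AF ko, IL22 ko, Tbet ko, IFNg ko, no T cells, IL6Ra/IL21R ko) each pair of neighbours overlapped. Cfb had 6.13 and 5.51 CPM in Tbet ko, 2.34 and 5.03 CPM in IFNg ko, and 9.45 and 13.6 CPM in IL-17AF ko libraries. Its order was the same, with no overlap between Tbet ko and IFNg ko and overlap between the other neighbours.

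Against total T cells, Cfb was lower with Tbet ko (-2.55 ± 0.74, adjusted p = 0.0121) and IFNg ko T cells (-3.18 ± 0.78, adjusted p = 0.00297), and C3 with IFNg ko T cells (-1.95 ± 0.75, adjusted p = 0.0458). C3 stood at -1.80 ± 0.75 with Tbet ko and at -0.97 ± 0.71 with IL-17AF ko T cells (adjusted p = 0.0701 and 0.341), and Cfb at -1.57 ± 0.69 with IL-17AF ko T cells (adjusted p = 0.101). None of the C3 and Cfb calls held with library set in the model. There Cfb was at -1.66 with Tbet ko and -2.29 with IFNg ko and C3 at -1.75 with IFNg ko T cells (adjusted p = 0.697, 0.378 and 0.4934). That model called 6 and 44 of all genes for Tbet ko and IFNg ko, in place of 3798 and 4611. Its estimate rests on 1 IL6Ra/IL21R ko library in set C. No C3 or Cfb call held in fits of the compared groups alone either (adjusted p = 0.0938, 0.0577 and 0.0795). The monocyte-derived cell markers summed to 361 to 599 CPM and the border macrophage markers to 12255 to 18015 CPM in these 3 groups, against 1868 to 8722 and 2119 to 7697 CPM in total T-cell libraries, and their part in these results was not tested. With C4b, described next, the members called were 2 of 8 for Tbet ko, 3 of 8 for IFNg ko and 1 of 8 for IL-17AF ko, where 30.0%, 36.4% and 25.0% of all genes were called. The differences between these knockouts were also tested: 0 of 8 members were called for IL-17AF ko against Tbet ko, IL-17AF ko against IFNg ko or Tbet ko against IFNg ko by edgeR or DESeq2, and 0 at an unadjusted p under 0.05, where 0, 0.0158% and 0 of all genes were called. The C3 differences were 0.84 ± 0.80, 0.98 ± 0.81 and 0.14 ± 0.80.

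Against no T cells, IL-17AF ko libraries had higher C3 (2.45 ± 0.60, adjusted p = 0.0211), Cfb (1.999 ± 0.60, adjusted p = 0.0486) and C4b, 3 of 8 members where 6.03% of all genes were called. The C3 and Cfb calls were lost with library set in the model (2.64 and 2.77, both with an adjusted p of 0.552). That model called 35 of all genes in place of 764, and its estimate rests on 1 IL6Ra/IL21R ko library in set C. The C3 and Cfb calls were also lost in fits of these groups alone (adjusted p = 0.0533 and 0.0945) and without the sex term (0.0599 and 0.0738). The marker sums without T cells were 721 to 1307 CPM for monocyte-derived cells and 9352 to 13774 CPM for border macrophages. The C3 and Cfb calls were lost without IL-17AF ko F1 (2.98 and 2.24) or F2 (1.60 and 1.72). Those fits left 1 library in the group, and calls over all genes changed in them too. The Cfb call was also lost without any no T-cell library except F2 (adjusted p = 0.0638 to 0.0844 in edgeR's quasi-likelihood test). There 4.31% to 5.85% of all genes were called. C3 was at 1.62 ± 0.62 with Tbet ko and 1.48 ± 0.62 with IFNg ko T cells (adjusted p = 0.11 and 0.111). Without no T-cell library F2, which had the most C3 of its group, these became calls at 2.24 and 2.09 (adjusted p = 0.03 and 0.0258).

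The calls against total T cells rested on few libraries too. The C3 call for IFNg ko T cells was lost without total T-cell F1, F2 or M1 (adjusted p = 0.0885, 0.0634 and 0.0772 in edgeR's quasi-likelihood test). In these fits 32.6%, 34.5% and 32.5% of all genes were called. The other losses came from fits that left 1 library in a group, where calls over all genes changed too. The C3 call was lost without IFNg ko F1 or F2 (-2.07 and -1.82), and the Cfb call without IFNg ko F1 (-2.74). With Tbet ko T cells the Cfb call was lost without Tbet ko F1 or F2 (-2.61 and -2.45). Without total T-cell F3, C3 and C3ar1 with Tbet ko T cells (-2.09 and 0.66, adjusted p = 0.029 and 0.0285) and Cfb with IL-17AF ko T cells (-1.88, adjusted p = 0.0293) became calls. A group left with 1 library is assumed to vary like the others.

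C4b, whose product is cut by the classical pathway's proteases and forms part of its C3-cutting enzyme, was highest in set C. It had 2040 and 1868 CPM in Tbet ko, 1459 and 1283 CPM in IFNg ko, and 2131 and 1596 CPM in IL-17AF ko libraries. IL6Ra/IL21R ko libraries had 408 to 883 CPM in set B and 1479 CPM in M4, the library in set C. IL22 ko libraries had 649, 828 and 894 CPM. Total T-cell libraries had 556, 949.7, 805, 927 and 542 CPM, and no T-cell libraries 468 to 781 CPM (median 573). All 7 libraries of set C, at 1283 to 2131 CPM, lay above all 20 others, at 408 to 949.7 CPM.

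C4b was called higher in every comparison of a set C group with a control: 1.41 ± 0.33, 0.89 ± 0.33 and 1.34 ± 0.33 for Tbet ko, IFNg ko and IL-17AF ko against total T cells (adjusted p = 0.00255, 0.0372 and 0.00534), and 1.82 ± 0.32, 1.31 ± 0.32 and 1.75 ± 0.32 against no T cells (adjusted p = 0.00388, 0.0124 and 0.00516). For Tbet ko and IFNg ko T cells it was the only 1 of 8 members called against no T cells, where 7.30% and 13.2% of all genes were called. When library set was added to the model, the values were 0.07, -0.44 and 0.0036 against total T cells and 0.43, -0.08 and 0.36 against no T cells, with no call; that estimate rests on 1 IL6Ra/IL21R ko library in set C. A fit of IFNg ko and total T-cell libraries alone also ended that C4b call (0.74, adjusted p = 0.0724). The fibroblast markers were also highest in set C: their sum was 3581 to 5755 CPM in set C, 1060 to 3118 CPM in set B and 666 to 1985 CPM in set A. Within set C, IL-17AF ko F1 had the lowest sum and the most C4b (2131 CPM). IFNg ko F2 had the highest sum and the least C4b (1283 CPM), and the other set C libraries lay between them in each value. The part of these markers in the C4b result was not tested. Leaving out IFNg ko F1 ended both C4b calls of that group (adjusted p = 0.208 and 0.204), leaving out IFNg ko F2 or total T-cell F1 or M1 ended the one against total T cells (0.0799, 0.0756 and 0.0767), leaving out IL-17AF ko F1 ended both (0.105 and 0.0976) and F2 the one against no T cells (0.0669), and leaving out Tbet ko F1 ended the one against no T cells (0.0944). C4a, the near-identical neighbour of C4b, stayed below the filter, and reads that fit both genes may have been dropped or shared.

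**Figure D4:**
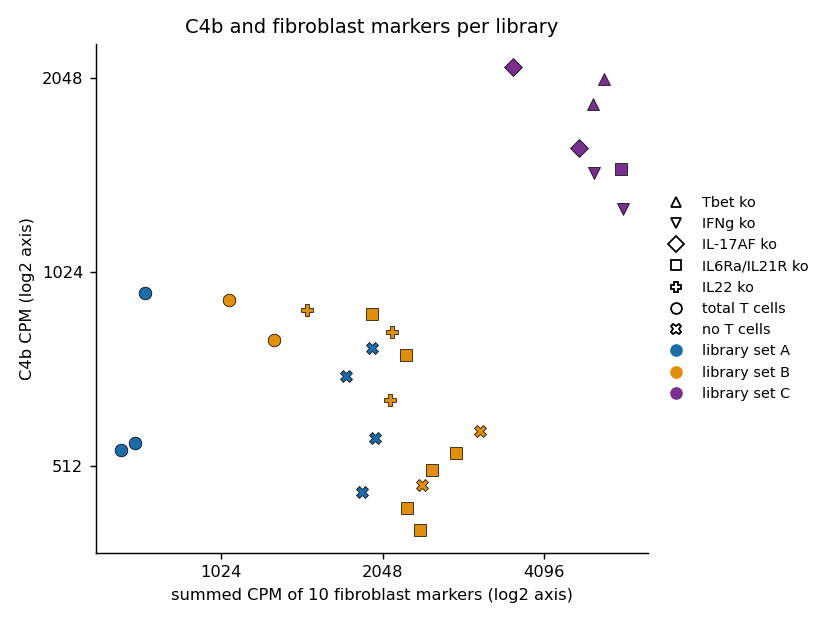
C4b CPM against the summed CPM of 10 fibroblast markers (both log2 axes), 1 point a library, with shape for the group and colour for the library set. The 7 set C libraries, IL6Ra/IL21R ko M4 among them, lie at the upper right, from 1283 CPM of C4b and 3581 CPM of fibroblast markers upwards.

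C3ar1, the receptor for the small C3 fragment, was not called with total T cells against no T cells. It had 400, 735, 1149.5, 815 and 479 CPM in total T-cell libraries F1 to F4 and M1, against 824 to 1214 CPM (median 916) in libraries without T cells. The lowest values were again in F1 and M1. The log2 fold change was -0.45 ± 0.19 (adjusted p = 0.0928). In set A alone it was lower, at -0.74 ± 0.20 (adjusted p = 0.0375), and in set B alone -0.15 ± 0.23 (adjusted p = 0.804); the difference between the sets had an adjusted p of 0.559. Without total T-cell library F3 it became a call, at -0.67 (adjusted p = 0.00669). Group means of the others were 995 ± 86.7 CPM in Tbet ko, 912 ± 18.8 in IFNg ko, 836 ± 6.83 in IL-17AF ko, 1079.9 ± 201 in IL6Ra/IL21R ko and 1070.0 ± 209.7 CPM in IL22 ko libraries (SD). Over the 27 libraries C3ar1 had a Pearson r of -0.78 with C3 and 0.81 with C1qc (log2 CPM).

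Over all 7 groups at once, C3 (adjusted p = 3.41e-05), Cfb (1.33e-05) and C4b (0.000324) differed, 3 of 8 members where 38.0% of all genes did. C1qa, C1qb, C1qc, Cfp and C3ar1 did not pass (adjusted p = 0.0649, 0.305, 0.106, 0.61 and 0.115). Between male and female libraries 0 of 8 members were called by edgeR's quasi-likelihood test and 0 by DESeq2, 1 (C3, 0.95 ± 0.36, adjusted p = 0.652) had an unadjusted p under 0.05, and 0.0474% of all genes were called. The X-linked Cfp was at 0.26 ± 0.14.

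The genes whose log2 CPM was most like that of C3 over the 27 libraries were Mmp14, a membrane-bound matrix protease (Pearson r = 0.95), Anpep, an aminopeptidase (0.93), Tnfaip2 (0.93), Sorl1, a sorting receptor (0.91), and Clcn7, a lysosomal chloride transporter (0.90). C3 and Cfb had r = 0.91. Most like the mean of the C1q genes were Camk1, a calmodulin-dependent kinase (0.90), the tetraspanin Cd81 (0.90), Gltp (0.88), the phospholipid transfer protein Pltp (0.87) and Pea15a (0.87). Mmp14 averaged 411 ± 244 CPM with total T cells and 80.0 ± 29.9 CPM without, and Camk1 156 ± 63.5 and 195 ± 10.5 CPM. These are likenesses across libraries that share depth and composition.

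Of 45 other complement genes, 21 were measured above the filter. With total T cells against no T cells, 6 of the 21 were higher and 4 lower, where 11.5% and 9.60% of all genes were; the 21 had a median log2 fold change of -0.46, against -0.03 over all genes. The higher genes were the C1 proteases C1ra (1.29 ± 0.31, adjusted p = 0.00433) and C1s1 (2.65 ± 0.70, adjusted p = 0.00906), their relative C1rl (1.96 ± 0.37, adjusted p = 0.000644), the membrane attack component C6 (2.13 ± 0.53, adjusted p = 0.00585), and Itgam and Itgax, the alpha chains of complement receptors 3 and 4 (0.69 ± 0.19 and 1.60 ± 0.35, adjusted p = 0.0118 and 0.00201). C1s1 averaged 8.25 ± 6.99 CPM with total T cells and 1.29 ± 1.002 CPM without, with overlapping ranges, and Itgax 205 ± 47.1 and 68.7 ± 15.01 CPM, without overlap. The lower genes included the regulators Clu (-1.40 ± 0.43, adjusted p = 0.0227) and Cd55 (-1.29 ± 0.40, adjusted p = 0.0239) and the receptor C5ar2 (-0.70 ± 0.24, adjusted p = 0.0373). Itgam is also on the list of macrophage markers.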

How the data were processed

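The libraries, made from sorted dural macrophages, were read from 1 end with an unstranded kit, per the labels' protocols. The submitters' processing notes name STAR 2.4.0j, featureCounts, DESeq2 1.20.0 and GRCm38. The deposited values are read counts per gene for 27 libraries. They were taken as raw, although called normalized, since every count from 1 to 20 occurs in each column and totals differ. Columns show group and sex. Pairs of libraries in a group differed by more than sampling noise (chi-square per degree of freedom 8.97 to 138 over 52 pairs). Whether each library is a separate animal is not stated, so p-values reflect only differences between libraries, which may be technical.

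Genes averaging 10 or more normalized counts were fitted with edgeR 4.0.16 (R 4.3.3; quasi-likelihood test, TMM scaling, group and sex, all libraries) and p-values adjusted by Benjamini-Hochberg over 12661 genes; a call is an adjusted p under 0.05. CPM were computed from the TMM-scaled totals. Comparisons with total T cells, and those with no T cells, share those libraries. Coordinates are from GENCODE M21. The model was tested on simulated data. The members and lists were chosen with earlier results of these data known. Named genes are the members, the other complement genes called in total T cells against no T cells (1 is not reported here), and the 5 genes most like C3 and C1q. Alternatives were DESeq2 1.42.0, other scaling, no filter, no sex term, female libraries, a library set term, single sets, fits of the compared groups alone and leaving out each library.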

Additional observations from a re-analysis of the deposited data

Results flagged for a closer look

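In IL6Ra/IL21R ko libraries, Cfb was lowest in M3, at 0.963 CPM, set apart from the next lowest library at 2.63 CPM by more than the spread of the others. Cfp was highest in M4 of the same group, at 1029 CPM, with the next at 616 CPM; M4 is the group's library in set C. These are 2 flags among 24 gene and group pairs with 4 to 10 libraries, where chance flags about 1 in 20.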

How the results depend on the processing

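The 8 genes gave 128 values in 16 comparisons, of which 18 were calls. C3 and Cfb stayed called in total T cells against no T cells under every alternative run except set B alone, and in IL6Ra/IL21R ko against total T cells under all. Counts of members called that moved by more than 1.5 times were as follows. With the library set as a term they were 0 for IFNg ko, Tbet ko and IL-17AF ko against both controls. Calls over all genes fell there too, from 4611, 3798 and 3170 to 44, 6 and 3 against total T cells. Against no T cells they fell from 1667, 924 and 764 to 0, 0 and 35. The member counts were 1 for IL22 ko against IL6Ra/IL21R ko and against no T cells (C3), where 32 and 72 genes were called in place of 1 each. They were 2 for IL6Ra/IL21R ko against total T cells, where 1809 genes were called in place of 3566. C4b reversed for IFNg ko under that term, to -0.0808 against no T cells and -0.44 against total T cells (adjusted p = 0.998 and 0.757). With no filter the counts were 6 for any difference and 4 for total T cells against no T cells. Against total T cells they were 5 for IL22 ko and 3 for IL-17AF ko. They were 2 each for IFNg ko, Tbet ko and IL22 ko against no T cells. They were 2 for IL22 ko against IL6Ra/IL21R ko, and 1 each for IL-17AF ko against IFNg ko and for male against female. Calls over all genes rose from 1, 2 and 6 to 558, 218 and 290 in these last 3 comparisons. Against no T cells they rose from 1667, 924 and 1 to 2011, 1510 and 499 for IFNg ko, Tbet ko and IL22 ko. Against total T cells they went from 36 to 1219 for IL22 ko and from 3170 to 3149 for IL-17AF ko. With no filter the prior degrees of freedom were infinite against 4.98, which ignores each gene's own spread. The dispersion of C3 was 0.498 against 6.79. In fits of the compared groups alone the members called against total T cells were 0 for IFNg ko, 1 for Tbet ko and 2 for IL6Ra/IL21R ko. Over all genes these fits called 1871, 1881 and 2460, in place of 4611, 3798 and 3566. Against no T cells 1 member each was called for IL-17AF ko and IL22 ko, with 820 and 43 of all genes in place of 764 and 1. DESeq2 called 2 for IL-17AF ko and 2 for IL22 ko against total T cells, with 3457 and 723 of all genes in place of 3170 and 36. Female libraries alone gave 2 for IL6Ra/IL21R ko against total T cells (1968 of all genes in place of 3566). No sex term gave 1 for IL-17AF ko against no T cells (578 of all genes in place of 764). Set B alone gave 0 for total T cells against no T cells, 2 for IL6Ra/IL21R ko against total T cells and 1 for IL22 ko against IL6Ra/IL21R ko. Over all genes it called 94, 842 and 167 in these comparisons, in place of 2669, 3566 and 1. Leaving out each library gave 3 to 5 for any difference (5 without total T-cell F1), 2 to 3 for total T cells against no T cells, 2 to 5 for IL6Ra/IL21R ko, 0 to 4 for IL22 ko, 0 to 3 for IFNg ko, 1 to 4 for Tbet ko and 0 to 2 for IL-17AF ko against total T cells, and 0 to 2 for IFNg ko, 0 to 2 for Tbet ko and 0 to 3 for IL-17AF ko against no T cells. In these leave-out fits, calls over all genes ran from 13.3% to 23.6% for total T cells against no T cells. Against total T cells they ran from 19% to 30.4% for IL6Ra/IL21R ko and from 0.0079% to 6.33% for IL22 ko. The alternative on set C alone was chosen after seeing the data and changed no call. The cause of the changes in the counts was not tested. No paired analysis was possible because the columns carry no replicate number of the labels. Cfb, with 10 to 1353 counts a library, has the fewest counts of the members.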

Other observations

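Serping1, the C1 inhibitor, was at its highest in the 7 libraries of set C, as C4b was. It had 99.0 to 205 CPM in set C and 10.2 to 45.7 CPM in the 20 libraries of sets A and B. These ranges did not overlap. Vtn, C1ra, C1s1 and C6 overlapped between set C and the rest. Serping1 was called higher with Tbet ko, IFNg ko and IL-17AF ko T cells against both controls, by 2.25 to 2.74 on the log2 scale, and Itgax was called lower against total T cells with each of these (-2.76 ± 0.57, -3.30 ± 0.59 and -1.69 ± 0.53; 19.9 ± 1.503 CPM in IFNg ko and 205 ± 47.1 CPM in total T-cell libraries). The fibroblast markers summed to 3581 to 5755 CPM in set C and to at most 3118 CPM in sets A and B, their part in these values was not tested, and for these 3 groups T-cell genotype and library set cannot be told apart. In IL6Ra/IL21R ko against total T cells, 6 of the 21 other complement genes were higher and 5 lower, where 13.3% and 14.8% of all genes were. Cd55 (1.68 ± 0.41, adjusted p = 0.00349) was among the higher, and Itgax (-1.99 ± 0.34, adjusted p = 0.000144), C1rl (-2.01 ± 0.36, adjusted p = 0.00021) and C6 (-1.55 ± 0.52, adjusted p = 0.0273) among the lower. These genes were chosen after their values were seen.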
